A study of Ovis aries with 30 samples.

Results

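The thyroid transcriptome of newborn Romney lambs kept in the cold was compared with that of lambs sampled at the start of the experiment. The members are the 9 thyroid libraries whose column names carry the cold or the control label, 6 from cold lambs and 3 from controls, of 30 libraries in the series. The cold lambs were housed with their ewe at 4 °C for 2 days. The controls were taken on arrival, within a day of birth, without any time in the housing. A further 6 thyroid libraries came from lambs housed for the same 2 days at an ambient temperature of 20 to 22 °C (AT), and they entered the same fit. All lambs were twins used as 1 lamb per ewe, and each library is 1 thyroid sample of 1 lamb. The cold lambs were therefore about 2 days older than the controls, had been housed and had been kept at 4 °C, and these differences cannot be told apart in this contrast. Of the 28524 genes in the table, 16215 had at least 10 reads in at least 10 of the 15 thyroid libraries and were tested.

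The thyroid follicle secretes thyroglobulin into its lumen, iodinates it with the help of hydrogen peroxide, and takes it back up for lysosomal cleavage into thyroid hormone. Thyrotropin drives this cycle, and a surge of thyroid hormone follows birth in lambs. The gland also holds C cells, which make calcitonin, together with fibroblasts, blood vessels and resident macrophages, and it lies against the parathyroids and the muscles of the neck.

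Values below are normalized counts, which are read counts divided by 1 size factor per library from the reference genes ACTB, RPL19 and HUWE1. A log2FC is cold minus control, with its standard error, and a gene was called upregulated or downregulated at |log2FC| of at least 1 and an adjusted p under 0.05 in edgeR's quasi-likelihood test across all tested genes. Controls are numbered 1 to 3 in sample order, and values for them are given in this order. Control 2 is the lamb that the study left out as an outlier. Each call was also made with each control left out in turn and with edgeR's TMM scaling, and a call that was made in the full fit, in the 3 fits without a control and with TMM is referred to as made in all 5 fits. Where a called gene given with its own values lost its call in 1 of these fits, the control concerned is named with it or at the end of the comparison. A value in brackets after a gene name alone is its log2FC with the standard error.

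The 9 libraries held 25062784 to 28612442 counts. Thyroid identity was visible in each, since the follicular markers summed to 1762400 to 2618800 normalized counts in the cold lambs and to 2809700, 1873900 and 5679800 in the controls. SLC26A4, the pendrin gene of the follicular cell, was listed at 0 in all 9 libraries, and whether its reads were counted under another gene name was not tested. The controls differed from each other in what lay beside the follicles. Skeletal muscle markers summed to 459710 in Control 1 against 5190.7 and 798.3 in Controls 2 and 3, and parathyroid markers to 50539 in Control 2 against 617 and 77.8 in Controls 1 and 3. The cold lambs ranged from 536 to 5726 for muscle and from 95.9 to 2482 for parathyroid, with Cold 4 the highest in both lists. Control 2 also had 27.8% of its counts in LOC114112617 and LOC114115287, a pair that took 5.95% to 10.2% in the cold lambs, and Control 3 had 14.2% in TG against 6.88% to 9.26%. On the first principal component, which held 40.8% of the variance of the 1000 most variable genes, the cold lambs lay between -19.0 and 4.77, and the controls at 24.2, 50.6 and -4.38. Because the 3 controls differ in this way, each result is given with them side by side.

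**Figure D1:**
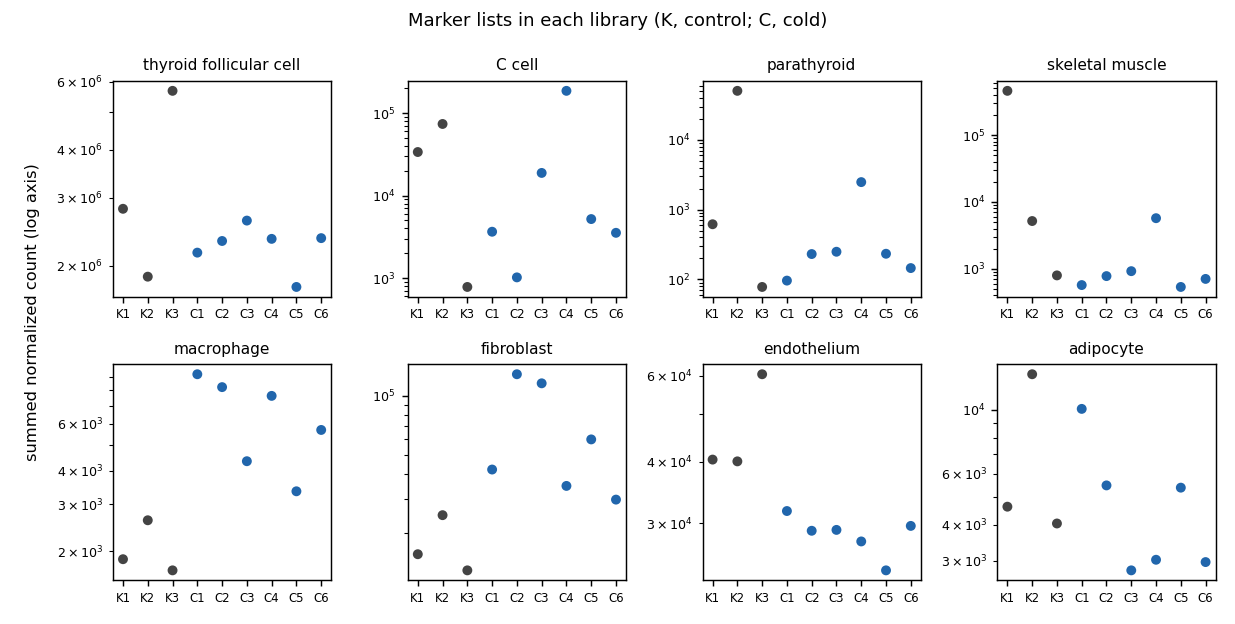
Summed normalized count of the genes of 8 marker lists in each library on a log axis (K1 to K3, Controls 1 to 3; C1 to C6, cold lambs). Skeletal muscle markers stood out in Control 1, parathyroid markers in Control 2 and C-cell markers in Cold 4. The macrophage and fibroblast sums were higher in each of the 6 cold lambs than in each control. Of the single genes, 5 of 9 tested macrophage markers and 5 of 10 fibroblast markers were.

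In the full fit 386 genes (2.38% of those tested) were upregulated in the cold lambs and 987 (6.09%) were downregulated. The median log2FC of all genes was -0.23 with the reference genes and -0.05 with TMM, so part of the lower side depends on the scaling. With TMM 553 genes (3.41%) were upregulated and 561 (3.46%) downregulated, and the share of calls on the lower side went from 71.9% to 50.4%. Of the 386 upregulated genes 334 had groups that did not overlap, as had 593 of the 987 downregulated genes. Across all genes 3.89% were higher in every cold lamb than in every control and 12.7% were lower. The shares of all genes are the background for the list counts below.

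Leaving out a control changed which genes were called. Without Control 1, 303 genes (1.87%) were upregulated and 1284 (7.92%) downregulated, and 235 and 873 of the original calls were among them. Without Control 2 the numbers were 304 (1.87%) and 991 (6.11%), with 217 and 503 of the original calls retained. Without Control 3 they were 429 (2.65%) and 962 (5.93%), with 237 and 698 retained. Control 2 was the highest control for 567 of the 987 downregulated genes, Control 3 for 327 and Control 1 for 93. The call was made in all 5 fits for 151 upregulated genes (0.931% of those tested) and 210 downregulated genes (1.3%). When Control 2 was left out and TMM was used together, 452 genes were upregulated and 334 downregulated, so that the upper side became the larger.

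**Figure D2:**
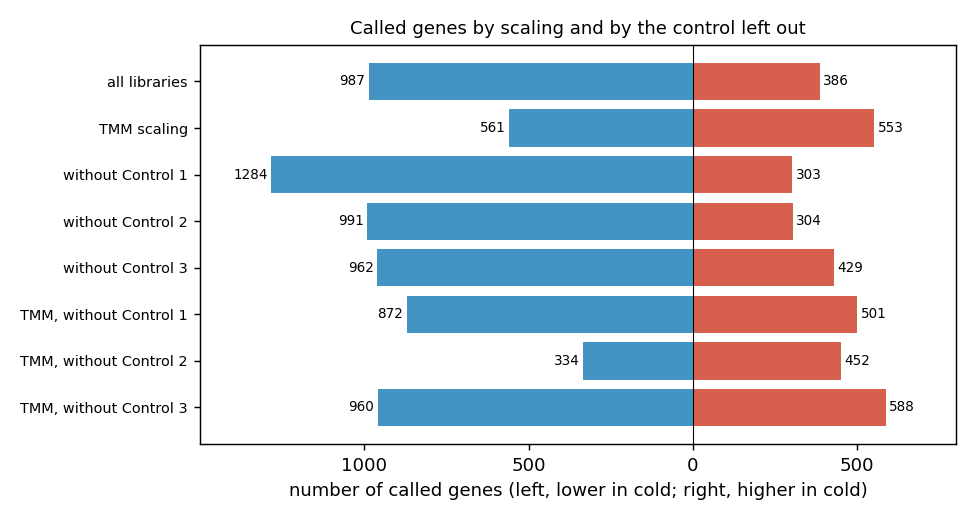
Number of genes called downregulated (bars to the left) and upregulated (bars to the right) in cold lambs with all libraries, with TMM scaling, and with each control left out under either scaling. The lower side ran from 334 to 1284 genes and the upper side from 303 to 588.

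**Figure D3:**
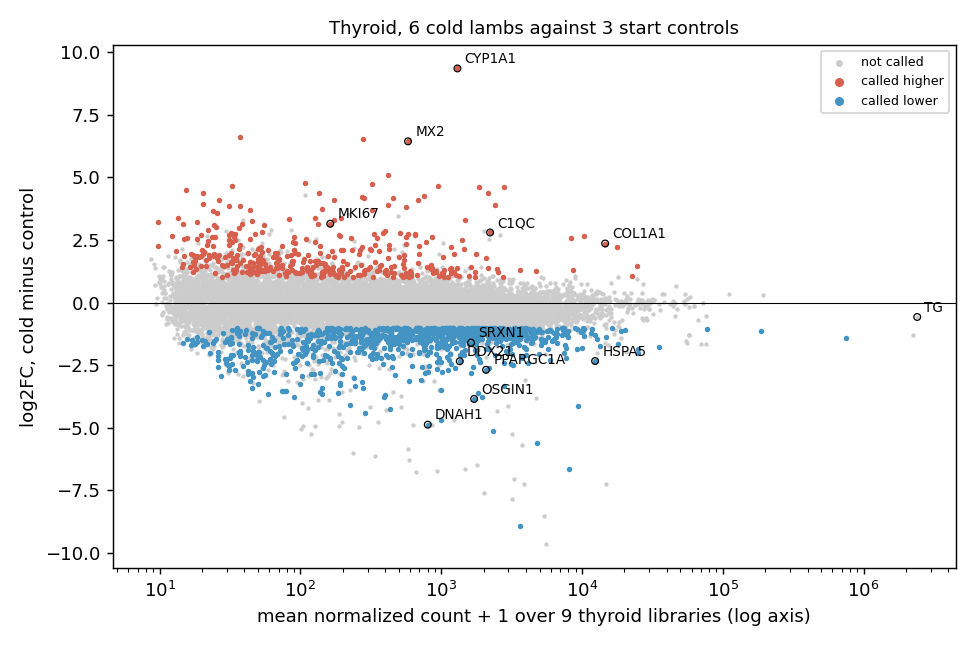
Log2FC of each tested gene, cold minus control, against its mean normalized count + 1 over the 9 libraries on a log axis, with called genes in colour and 12 genes circled. CYP1A1 stood at the top with a log2FC of 9.36, interferon genes such as MX2 followed, and DNAH1 lay among the lowest of the genes called in all 5 fits.

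The largest upregulation was that of CYP1A1, a cytochrome P450 that oxidizes aromatic compounds and is the classic target of the aryl hydrocarbon receptor. It lies at chr18:31804203-31810062 (Oar_rambouillet_v1.0). CYP1A1 had 469.9 to 4072 (median 1713) normalized counts in the cold lambs and 6.35, 0 and 1.28 in the controls. The 2 groups were far apart, and the controls rested on 6, 0 and 1 reads, so the size of the change is imprecise (log2FC 9.36 ± 1.41, adjusted p = 0.00195). Without each control in turn the log2FC was 11.23, 8.90 and 9.03, and the call was made in all 5 fits. In the AT lambs CYP1A1 had 19.4 to 657 (median 319) normalized counts, also above each control. Cold minus AT was 2.53 ± 0.67 on the log2 scale, with an unadjusted p of 0.00198 in edgeR and an adjusted p of 0.9999.

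Genes of the interferon response had the highest median of the 28 lists in the full fit, whereas without Cold 1 the mitosis list did, with 1.28 against 0.95. Of 34 tested genes on the list 17 were upregulated and none downregulated, all 34 had a log2FC above 0, and 9 were called in all 5 fits. The median log2FC was 1.36 (1.59 with TMM), against -0.23 (-0.05) for all genes. These genes encode antiviral effectors and their regulators, and type I and type II interferons induce them.

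MX2 and MX1, dynamin-like GTPases that block viral replication, lie close together at chr1:284814590-284870736 and chr1:284878392-284913087. MX2 had 158 to 3904 (median 294) normalized counts in the cold lambs and 12.7, 4.60 and 11.5 in the controls (log2FC 6.44 ± 1.33, adjusted p = 0.00683). MX1 had 744 to 17762 (median 1395) against 124, 230.1 and 147 (log2FC 4.63 ± 1.11, adjusted p = 0.0139). For both genes every cold lamb lay above every control, and Cold 1 lay far above the other cold lambs. ISG15, a ubiquitin-like modifier, had 128 to 2535 (median 251) against 23.3, 9.20 and 20.4 (log2FC 5.10 ± 1.10, adjusted p = 0.00835). The chemokine gene CXCL10 had 57.2 to 1824 (median 151) against 9.53, 0 and 2.55, with 9, 0 and 2 reads behind the control values (log2FC 6.54 ± 1.42, adjusted p = 0.00845). IFI6, which encodes a small interferon-induced protein, had 1251 to 7596 (median 2527) against 101, 273 and 84.2 (log2FC 4.36 ± 0.70, adjusted p = 0.00217). All of these genes are among the 12 leading upregulated genes. Absence of overlap between the groups and a call in all 5 fits were conditions for entry there.

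Further interferon genes named by their size of change were IFIT1, which binds viral RNA (4.72 ± 0.92), BST-2A, a tetherin gene (4.76 ± 1.14), RTP4 (3.76 ± 0.82), EPSTI1 (3.37 ± 0.63) and the nucleic acid sensor gene ZBP1 (3.33 ± 0.82). These 5 genes are also among the 12 leading upregulated genes and so met the same conditions. BST-2A, RTP4 and ZBP1 among them are not on the list of 34. DESeq2's Wald test gave no adjusted p for MX2 or BST-2A, so neither could be called by it. Cold 1 was the highest cold lamb for all 34 genes. Without Cold 1 the list still had 14 upregulated genes, with a median log2FC of 0.95. MX2 then had a log2FC of 4.71 (adjusted p = 0.000741, edgeR) and ISG15 of 3.73 (adjusted p = 0.00294). Without Controls 1, 2 and 3 the number upregulated was 12, 9 and 12. In the AT lambs MX2 had 126 to 380.1 (median 295) and IFI6 1404 to 4598 (median 2449.8) normalized counts, also above all 3 controls, and 1 of the 34 genes had an unadjusted p under 0.05 in cold against AT.

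Macrophage genes were raised beside them. Of 9 tested macrophage markers 4 were upregulated, and all 4 were called in all 5 fits, while 3 of the 9 had a log2FC below 0. In bulk tissue more cells of a type and more RNA per cell cannot be told apart. C1QC, a chain of the complement recognition protein C1q that tissue macrophages make, had 1434 to 5043 (median 3231) normalized counts in the cold lambs and 353, 652 and 337 in the controls (log2FC 2.80 ± 0.44, adjusted p = 0.00195). C1QA, its sister chain, had 635 to 1924 (median 1196) against 159, 279 and 147 (log2FC 2.62 ± 0.41, adjusted p = 0.00201). CSF1R, the receptor for the macrophage growth factor, had 410.1 to 834 (median 768) against 269.9, 270.0 and 245 (log2FC 1.39 ± 0.25, adjusted p = 0.00326). In these 3 genes the lowest cold lamb lay above the highest control.

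AIF1, a macrophage actin-binding protein gene, was the other one (1.52 ± 0.30). The lysosomal marker CD68 was not called (log2FC -0.10 ± 0.24, adjusted p = 0.806), and MARCO, a scavenger receptor gene, varied from 6.78 to 127 in the cold lambs and stood at 4.23, 250.0 and 1.28 in the controls. The summed level of the macrophage list was 3352 to 9182 in the cold lambs and 1697 to 2612 in the controls, and its part in the rise of the interferon genes was not tested. FCGR3A, an Fc receptor gene of macrophages and natural killer cells, was among the 12 leading upregulated genes. It had 203 to 928 (median 318) against 23.3, 12.3 and 31.9 (log2FC 4.18 ± 0.61, adjusted p = 0.00128). Without Cold 1 the list again had 4 genes upregulated.

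Antigen presentation had 3 of 14 genes upregulated, namely CD74, CIITA and CTSS, with a list median of 0.78. Cold 1 was the highest cold lamb for 11 of the 14, and without it 3 genes were upregulated and the median was 0.34. CD74, the invariant chain that guides class II molecules to the endosome, had 4903 to 32635 (median 11081) normalized counts in the cold lambs and 1935, 2183 and 2724 in the controls (log2FC 2.65 ± 0.57, adjusted p = 0.00762). CIITA, the master regulator of class II genes, had 132 to 591 (median 236) against 74.1, 47.6 and 91.8 (log2FC 2.12 ± 0.47, adjusted p = 0.00851). Neither gene overlapped between the groups, and both were called in all 5 fits. CTSS, the cathepsin that cuts the invariant chain, overlapped at the lower end (log2FC 1.37 ± 0.37, adjusted p = 0.0199), and its call was lost without Control 2 and in the fit of the 2 groups alone. Among lymphocyte markers 1 of 9 T-cell genes (CD2, 2.22 ± 0.60) and 1 of 3 B-cell genes (CD22, 2.90 ± 0.75) were upregulated.

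**Figure D4:**
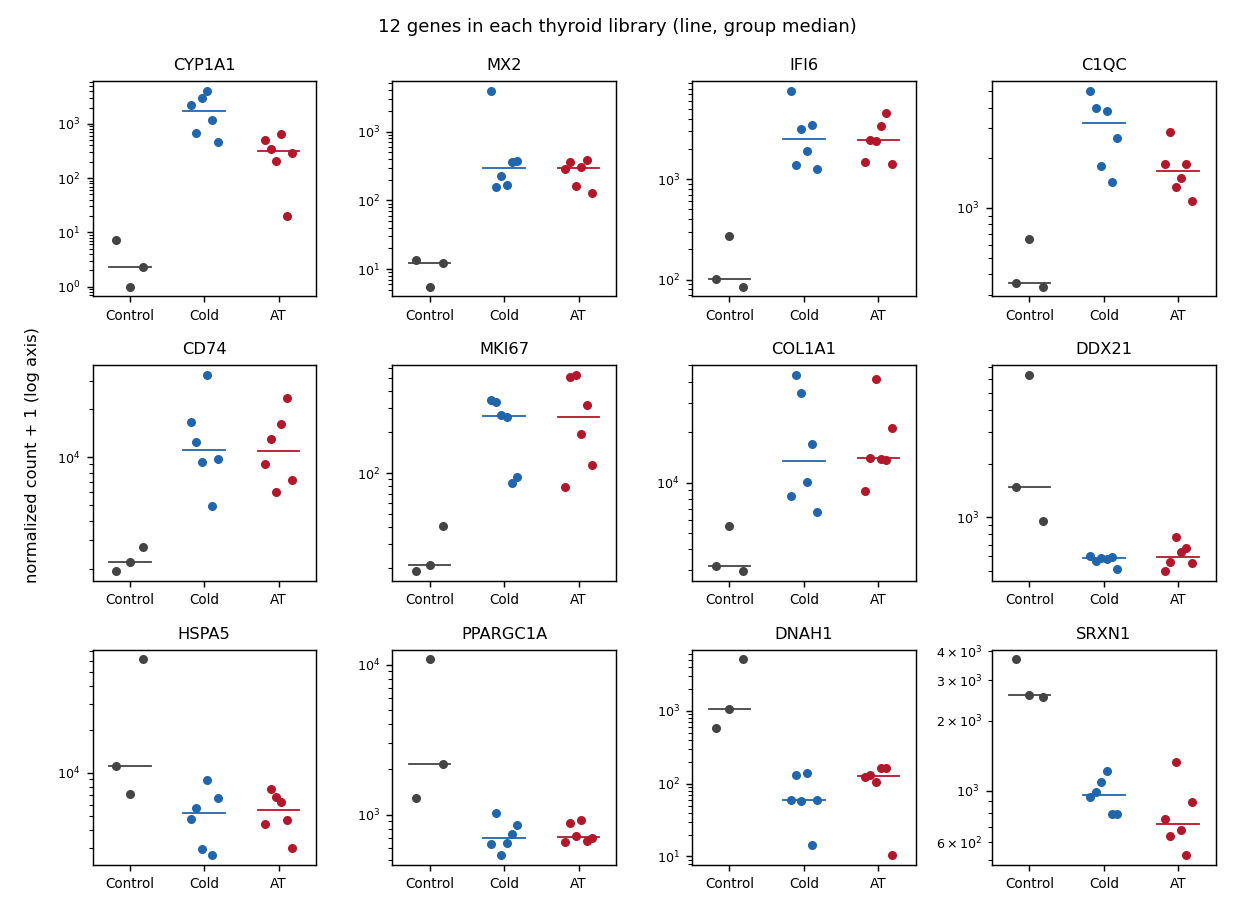
Normalized count + 1 of 12 genes in each thyroid library on a log axis, for the 3 controls, the 6 cold lambs and the 6 AT lambs, with a line at the group median. CYP1A1, MX2, IFI6, C1QC, CD74, MKI67 and COL1A1 were higher in every cold lamb than in every control, DDX21, PPARGC1A, DNAH1 and SRXN1 were lower in every cold lamb, and HSPA5 overlapped because 1 cold lamb exceeded Control 2.

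Genes of mitosis were upregulated in 17 of 38 cases, 36 of the 38 lay above 0, and 7 were called in all 5 fits. The list median was 1.29 (1.42 with TMM). MKI67, the nuclear protein present in cycling cells, had 82.9 to 343 (median 263) normalized counts in the cold lambs and 18, 19.9 and 39.5 in the controls (log2FC 3.15 ± 0.72, adjusted p = 0.00957). The mitotic kinase gene AURKB had 18.2 to 78 (median 58.7) against 1.06, 6.14 and 3.83 (log2FC 3.87 ± 0.78, adjusted p = 0.00577). ASPM, a spindle pole gene, had 8.85 to 59.9 (median 35.9) against 2.12, 0 and 5.10 (log2FC 3.67 ± 0.88, adjusted p = 0.0126). In these 3 genes the groups did not overlap, although the lowest cold value of ASPM came close to Control 3, and all 3 were called in all 5 fits.

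Other upregulated mitosis genes included the kinetochore genes CENPE, CENPF, NDC80 and BUB1 and the topoisomerase gene TOP2A. The genes of DNA replication had fewer calls, with 2 of 40 upregulated, ORC1 (1.30 ± 0.36) and POLE (1.27 ± 0.39), and a list median of 0.08. The number of mitosis genes upregulated depended on which library was left out, with 9, 10 and 15 without Controls 1, 2 and 3, and 11 to 18 without a cold lamb. MKI67 in the AT lambs had 78.4 to 527 (median 256), and cold minus AT was -0.33 ± 0.48 with an unadjusted p of 0.498.

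Of 23 collagen genes 4 were upregulated and 1 was downregulated, and none of these calls was made in all 5 fits. COL1A1, a chain of type I collagen, had 6694 to 43748 (median 13472) normalized counts in the cold lambs and 3164, 5533 and 2975 in the controls (log2FC 2.36 ± 0.66, adjusted p = 0.0247). COL3A1, the chain of type III collagen, had 10494 to 46438 (median 17721) against 5386, 5189 and 4959 (log2FC 2.22 ± 0.56, adjusted p = 0.0164). Every cold lamb exceeded every control for both genes, with a wide spread among the cold lambs. Both calls were lost without Control 3, and that of COL1A1 also without Control 1.

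COL1A2 (2.59 ± 0.68) and COL16A1 (1.25 ± 0.34) were the other upregulated collagens, whereas the basement membrane collagen gene COL4A2 was downregulated (-1.08 ± 0.23), with its highest value in Control 2. Without Control 3 none of the 23 collagens was called upregulated, and the list median was then 0.75, against 0.54 in the full fit. Of 10 fibroblast markers 5 were upregulated, 4 of them being matrix genes (COL1A1, COL1A2, COL3A1 and LUM) and the other THY1 (1.33 ± 0.36). The fibroblast list summed to 29708 to 128460 in the cold lambs and to 13003 to 24773 in the controls. Among 41 matrix glycoprotein and remodelling genes 2 were upregulated, LUM (1.96 ± 0.60) and the gelatinase gene MMP9 (2.43 ± 0.73), and 3 were downregulated. Of all genes 2.38% were upregulated and 6.09% downregulated. TIMP2, an inhibitor of matrix metalloproteinases, had 764 to 2491 (median 1798) in the cold lambs and 6279.6, 8243 and 12422 in the controls (log2FC -2.41 ± 0.42, adjusted p = 0.00286), without overlap. ADAMTS1, a matrix protease gene, was also lower (-1.37 ± 0.23), and both were called in all 5 fits. THBS1 (-1.47 ± 0.43) had 6171 in Control 1 against 1203 and 1755 in the others, and its call was lost without Control 1.

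On the lower side, genes of ribosome biogenesis had the most calls of the 28 lists and, in the full fit, the lowest median. Without Control 1 or without Control 2 the ER chaperone list had the lowest median, and without Control 3 the glucocorticoid targets. Of 77 genes on the list 42 were downregulated and none upregulated, 55 had every cold lamb below every control, and 20 were called in all 5 fits. The median log2FC was -1.08 (-0.90 with TMM). These genes encode the nucleolar machinery that transcribes, modifies and folds ribosomal RNA. DDX21, a nucleolar RNA helicase, had 511 to 599.6 (median 585) normalized counts in the cold lambs and 1483, 6306 and 954 in the controls (log2FC -2.35 ± 0.38, adjusted p = 0.00214). The 6 cold lambs lay within a narrow range, and Control 2 stood above the other controls.

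RRP9, a component of the U3 processing complex, had 245 to 449 (median 320.0) against 803, 1706 and 1090.3 (log2FC -1.86 ± 0.26, adjusted p = 0.00101). NOP14, needed for the small subunit, had 506 to 1272 (median 750.5) against 2435, 2606 and 2525 (log2FC -1.67 ± 0.22, adjusted p = 0.000943), and here the 3 controls were close to each other. DDX21, RRP9 and NOP14 were called in all 5 fits. DKC1, the pseudouridine synthase of box H/ACA particles, had 2757 to 3481 (median 3137) against 4861, 18566 and 4666 (log2FC -1.58 ± 0.32, adjusted p = 0.00571), and its call was lost without Control 2. Also downregulated were the box C/D genes NOP56, NOP58 and FBL, the PeBoW genes PES1, BOP1 and WDR12, and the GTPase genes GNL2, GNL3 and GTPBP4. The highest control was Control 3 for 34 of the 77 genes, Control 2 for 32 and Control 1 for 11, and 38, 43 and 32 genes were downregulated without Controls 1, 2 and 3.

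The ribosomal proteins themselves lay near 0. Of 73 cytosolic ribosomal protein genes none was called by edgeR or by DESeq2's Wald test, with 3 at an unadjusted p under 0.05 in edgeR, and their median log2FC was -0.06 (0.10 with TMM), with values from -0.55 to 0.37. The reference gene RPL19 is of this family. Among 34 translation initiation and elongation genes 7 were downregulated, and 4 without Control 2. EIF5B, the factor that joins the ribosomal subunits, had 3551 to 5038 (median 4127) in the cold lambs and 6661, 30201 and 7427 in the controls (log2FC -1.81 ± 0.36, adjusted p = 0.00525). EIF3B, a scaffold of the initiation factor eIF3, had 2277 to 2408 (median 2332) against 4935, 4333 and 5468 (log2FC -1.07 ± 0.20, adjusted p = 0.00443). Neither overlapped, but the call of EIF5B was lost without Control 2 (-0.74) and that of EIF3B without Control 3 or with TMM, under which 2 genes of the list were downregulated. Of 20 aminoacyl-tRNA synthetase genes 3 were downregulated, VARS (-1.45 ± 0.23), EPRS (-1.42 ± 0.26) and MARS (-1.33 ± 0.34), of which VARS and EPRS were called in all 5 fits.

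**Figure D5:**
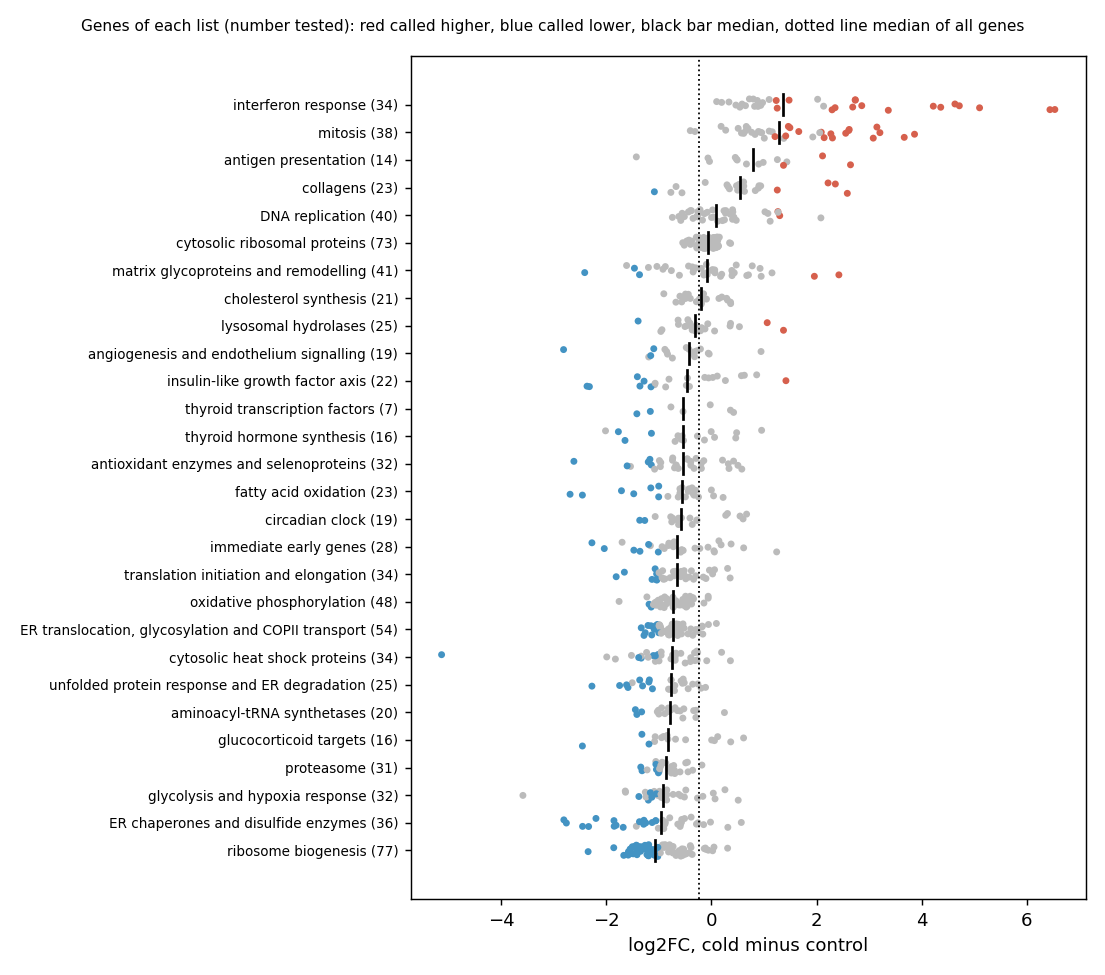
Log2FC of each gene, cold minus control, in 28 gene lists sorted by their median (black bars), with upregulated genes in red, downregulated genes in blue and the median of all genes as a dotted line. The interferon and mitosis lists lay at the top with medians of 1.36 and 1.29, and the ER chaperone and ribosome biogenesis lists at the bottom with -0.97 and -1.08.

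ER chaperone genes were lower chiefly against Control 3. Of 36 chaperone and disulfide enzyme genes 16 were downregulated and 34 had a log2FC below 0, with a median of -0.97 (-0.75 with TMM). Control 3 was the highest control for 31 of the 36 genes. HSPA5, the main Hsp70 of the endoplasmic reticulum, had 2681 to 8852 (median 5243) normalized counts in the cold lambs and 11213, 7084 and 61575 in the controls (log2FC -2.34 ± 0.53, adjusted p = 0.00983). MANF, a secreted ER stress protein, had 279 to 779 (median 438) against 1108, 639.6 and 5955 (log2FC -2.45 ± 0.51, adjusted p = 0.00663). CRELD2 had 227 to 1109 (median 433) against 1258, 1773 and 8386 (log2FC -2.81 ± 0.63, adjusted p = 0.00944). In these 3 genes Control 3 stood several times above the other controls, and the cold lambs overlapped with Control 2 in HSPA5 and MANF. The 3 calls were lost without Control 3. Without Control 3 the number downregulated was 3 of 36 and the list median -0.25, whereas 19 were downregulated without Control 1 and 21 without Control 2. Control 3 also had the largest share of counts in TG, the main secretory load of the follicle, and the part of this in the chaperone levels was not tested.

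The unfolded protein response list had 7, 13 and 7 genes downregulated without Controls 1, 2 and 3. In the full fit 9 of 25 genes were downregulated, all 25 were below 0, and 5 were called in all 5 fits. DDIT3, the stress transcription factor CHOP, had 343 to 640.3 (median 387) in the cold lambs and 669, 1979 and 1162 in the controls (log2FC -1.59 ± 0.28, adjusted p = 0.0031). HERPUD1, which acts in ER-associated degradation, had 3307 to 4590.1 (median 3985) against 7424, 9075 and 19599.9 (log2FC -1.61 ± 0.23, adjusted p = 0.0011). DERL3, a member of the derlin family of the same pathway, had 143 to 482 (median 314) against 600.2, 1079.9 and 1348 (log2FC -1.75 ± 0.42, adjusted p = 0.0126). All cold lambs lay below all controls in these 3 genes, which were called in all 5 fits. XBP1 and ATF4, transcription factors of the response, were also downregulated. ATF3 was highest in Control 1, with 1738, 75.2 and 229.5 in the controls against 94.2 to 162 (median 147) in the cold lambs (log2FC -2.27 ± 0.74, adjusted p = 0.0452), and Control 2 lay below every cold lamb.

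Of 54 genes of ER translocation, glycosylation and COPII transport 10 were downregulated, 53 lay below 0, Control 3 was the highest control for 51, and none was called in all 5 fits. The list median was -0.735, against -0.23 for all genes. The shares of all genes below 0 and highest in Control 3 are not given here. The number downregulated was 2 with TMM, 14 without Control 1 and 26 without Control 2. Without Control 3 all 10 calls were lost, and the list median was then -0.28. SEC23B, a COPII coat gene, had a log2FC of -1.28 ± 0.21 and the glucosyltransferase gene ALG5 of -1.33 ± 0.28, and both calls were lost without Control 3. Of 34 cytosolic heat shock genes 6 were downregulated, with 3 under TMM, 4 without Control 1, 15 without Control 2, 3 without Control 3 and 12 without AT 3. HSPH1, an Hsp110 chaperone, had 496 to 881 (median 654) against 2714, 598 and 1687 (log2FC -1.34 ± 0.35, adjusted p = 0.0189) and overlapped at Control 2. HSF1, the heat shock transcription factor, did not overlap (log2FC -1.38 ± 0.31, adjusted p = 0.00962), but its call was lost without Control 2. HSPB8 had 19333, 284 and 82.9 in the controls, so that its log2FC of -5.13 ± 1.58 rested on Control 1, the library with the high muscle markers, and was 0.04 without it. Of 31 proteasome genes 6 were downregulated and all 31 lay below 0, with a median of -0.87. The number downregulated was 2 with TMM, 15 without Control 2 and 3 without Control 3. PSMD7, a subunit of the proteasome lid, had 1701 to 1910.4 (median 1829.7) against 4026, 6117 and 3539 (log2FC -1.32 ± 0.24, adjusted p = 0.00373), and PSMD1 in the base had a log2FC of -1.34 ± 0.28, both called in all 5 fits.

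Calls among the genes that make thyroid hormone depended on the scaling and on the controls. Of 16 tested genes 3 were downregulated in the full fit, a larger share than the 6.09% of all genes. None of the 3 was called in all 5 fits, and the list median was -0.54 (-0.30 with TMM). Without Control 3 all 3 calls were lost and the median turned to 0.08. TG, which encodes thyroglobulin and lies at chr9:22956462-23207959, had 1586381 to 2441440.4 (median 2101492) normalized counts in the cold lambs and 2572742, 1512906 and 5151780.1 in the controls (log2FC -0.58 ± 0.27, adjusted p = 0.158). Control 2 lay below every cold lamb and Controls 1 and 3 above, so the controls enclosed the cold lambs. SLC5A5, the sodium iodide symporter, was spread widely in both groups, with 1486 to 16555 (median 4694) against 11455, 2589 and 63004 (log2FC -2.02 ± 0.83, adjusted p = 0.108) and overlap.

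DIO2, the deiodinase that activates thyroxine, had 21.5 to 77.1 (median 40.9) against 94.2, 222 and 129 (log2FC -1.64 ± 0.52, adjusted p = 0.041), and the call was lost with TMM and without Control 2 or 3. KCNQ1, a potassium channel subunit, overlapped between the groups through Control 2 (log2FC -1.77 ± 0.55, adjusted p = 0.0363) and was likewise not called with TMM. The iodide transporter gene SLC26A7 was the only one of the list to be called upregulated under a scaling, with a log2FC of 0.96 ± 0.32 in the full fit (adjusted p = 0.0477) and 1.14 with TMM. DUOX1 (-0.69 ± 0.29), DUOX2 (0.06 ± 0.43), DUOXA1 (-0.004 ± 0.44) and DUOXA2 (-0.27 ± 0.39), which supply hydrogen peroxide, were not called. TSHR, the thyrotropin receptor, had 2696 to 5162 (median 4572) against 3094, 1344 and 4479.8 (log2FC 0.48 ± 0.34, adjusted p = 0.351), and the groups overlapped. IYD (0.46 ± 0.42), ANO1 (-0.53 ± 0.39), DIO1 (-0.55 ± 0.71) and SLC16A10 (-0.64 ± 0.58) were not called either.

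Among 7 thyroid transcription factors and related regulators 2 were downregulated. CREM, a cAMP-responsive factor, had 475 to 1077 (median 614) normalized counts in the cold lambs and 1253, 1650.5 and 1533 in the controls (log2FC -1.16 ± 0.26, adjusted p = 0.00845) and was called in all 5 fits. CREB3L1, which regulates secretory pathway genes, was downregulated (-1.42 ± 0.34) but not without Control 3. NKX2-1 had 10365 to 14674 (median 10613) against 10555, 10443 and 14221 (log2FC -0.02 ± 0.19, adjusted p = 0.948), and PAX8 (-0.54 ± 0.27), FOXE1 (0.36 ± 0.46), HHEX (0.42 ± 0.28) and GLIS3 (-0.77 ± 0.16) did not reach the thresholds either. GLIS3, a zinc finger factor, nevertheless lay lower in each cold lamb, with 883 to 1213 (median 944) against 1712, 1301 and 2006 (adjusted p = 0.00588). Of 25 lysosomal hydrolase genes CTSZ (1.06 ± 0.23) and CTSS were upregulated and CTSH (-1.40 ± 0.25) was downregulated. The shares of all genes were 2.38% upregulated and 6.09% downregulated. C-cell levels varied widely within both groups. CALCA, the calcitonin gene, had 644 to 161288 (median 3452) in the cold lambs and 29475, 26515 and 527 in the controls, and Cold 4 held the highest value.

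PPARGC1A, the coactivator of mitochondrial biogenesis, was the member of the energy lists called in all 5 fits with the largest change. It lies at chr6:48028894-48541490 and had 536 to 1029 (median 693) normalized counts in the cold lambs and 1286, 10831 and 2177 in the controls (log2FC -2.69 ± 0.44, adjusted p = 0.00217). Every cold lamb lay below every control, and Control 2 stood highest. Without Control 2 the log2FC was -1.23. Of 23 fatty acid oxidation genes, a list that includes PPARGC1A, 7 were downregulated, and 4 each without Control 2 and without Control 3. PDK4, the kinase that shuts off pyruvate dehydrogenase, had 682 to 1856 (median 1328) against 11745, 7359.7 and 1580.0 (log2FC -2.46 ± 0.64, adjusted p = 0.019), with overlap at Control 3. FABP3, a fatty acid binding protein gene, had 3511 to 5055 (median 4282) against 9090.1, 2888 and 30068 (log2FC -1.71 ± 0.43, adjusted p = 0.0151) and was highest in Control 3. SLC25A20, the carnitine carrier gene, had a log2FC of -1.48 ± 0.40. The call of PDK4 was lost without Control 1 and those of FABP3 and SLC25A20 without Control 3.

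All 48 tested oxidative phosphorylation genes lay below 0, with a median of -0.73 (-0.49 with TMM), against -0.23 (-0.05) for all genes. Of the 48 genes 2 were downregulated, NDUFB1 (-1.19 ± 0.34) and NDUFS7 (-1.15 ± 0.37), both subunits of complex I, and Control 3 was the highest control for 47. That share of calls was below the 6.09% of all genes. Without Control 3 both calls were lost and the list median was -0.28, and without AT 3, which enters the fit through the shared spread, 8 were downregulated. Among 32 glycolysis and hypoxia genes 5 were downregulated (3 with TMM, 11 in the fit of the 2 groups alone, 12 without AT 3), and NDRG1 (-1.38 ± 0.29) and BNIP3 (-1.16 ± 0.26), both known hypoxia targets, were called in all 5 fits. HIF1A, the oxygen-regulated transcription factor itself, had 1257 to 1772 (median 1399) against 2464, 4563 and 2599 (log2FC -1.13 ± 0.21, adjusted p = 0.004), and was not called without Control 2. No gene of cholesterol synthesis was called among 21 by edgeR or DESeq2's Wald test, with 3 at an unadjusted p under 0.05, and their median of -0.19 became 0.22 without Control 3. Of 32 antioxidant enzyme and selenoprotein genes 5 were downregulated, with 3 under TMM, 8 without Control 2, 1 without Control 3 and 3 each without Cold 3, Cold 5 or Cold 6. SRXN1, sulfiredoxin, had 794 to 1210.4 (median 962) against 3690.3, 2600.0 and 2541 (log2FC -1.60 ± 0.24, adjusted p = 0.00158), without overlap and in all 5 fits. GPX4 (-1.20 ± 0.26) and TXN (-1.17 ± 0.28) were lower as well, and GPX2 (-2.62 ± 0.76) overlapped at Control 2.

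The genes with the largest decreases that were called in all 5 fits were of mixed function. DNAH1, an axonemal dynein heavy chain at chr19:50452394-50531386, had 13.3 to 139 (median 58.8) normalized counts in the cold lambs and 576, 1061 and 5119 in the controls (log2FC -4.88 ± 0.78, adjusted p = 0.00217). Control 3 stood highest and every control lay above every cold lamb. OSGIN1, an oxidative stress response gene, had 215 to 395 (median 337) against 1169, 11041 and 1321 (log2FC -3.85 ± 0.53, adjusted p = 0.00101), with Control 2 highest. KCNQ3, a voltage-gated potassium channel gene, had 5.31 to 30 (median 17.1) against 183, 152 and 244 (log2FC -3.52 ± 0.53, adjusted p = 0.00157). TCP11 had 15.7 to 38.7 (median 21.7) against 132, 130.4 and 283 (log2FC -2.85 ± 0.35, adjusted p = 0.000781). The controls were closer to each other in KCNQ3 and TCP11 than in DNAH1 and OSGIN1.

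UPP1, uridine phosphorylase, had a log2FC of -2.84 ± 0.55 and RFLNB of -2.78 ± 0.59. ANOS1, the extracellular matrix protein anosmin, had 219 to 730.1 (median 385) against 2637, 954 and 4045 (log2FC -2.68 ± 0.42, adjusted p = 0.00201). NUPR1, a stress-induced nuclear protein gene, had 262 to 1239 (median 842) against 2558, 10934 and 1321 (log2FC -2.62 ± 0.50, adjusted p = 0.00481). The gap between the groups was narrow in NUPR1, where Control 3 lay just above the highest cold lamb. NMB, neuromedin B, a peptide known to restrain thyrotropin release, had 422 to 768 (median 674) against 1652, 6834 and 2831 (log2FC -2.57 ± 0.44, adjusted p = 0.00286). UBE2QL1 (-2.53 ± 0.47) and the orexin receptor gene HCRTR1 (-2.505 ± 0.40) completed, with PPARGC1A described above, the 12 leading downregulated genes. Absence of overlap between the groups and a call in all 5 fits were conditions for entry among these 12.

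Among signalling genes the calls varied between fits. Of 28 immediate early genes 6 were downregulated in the full fit, 1 with TMM, 3 in the fit of the 2 groups alone, 3 without Control 1, 3 each without Cold 1 and without Cold 2, 2 without Cold 5, and 1 each without Cold 3 and without Cold 6. SIK1, a cAMP-induced kinase, had 319.8 to 798 (median 374) normalized counts in the cold lambs and 1645, 1316 and 2572 in the controls (log2FC -2.04 ± 0.28, adjusted p = 0.00106) and was called in all 5 fits. MYC, a driver of growth and ribosome production, had 217 to 289 (median 259.8) against 1120.0, 466 and 530.5 (log2FC -1.48 ± 0.45, adjusted p = 0.036), without overlap but not called with TMM or without Control 1. KLF4 (-1.36 ± 0.38) was likewise not called with TMM. Of 16 glucocorticoid targets PDK4, ERRFI1 (-1.32 ± 0.30) and SGK1 (-1.19 ± 0.37) were downregulated. Of 19 clock genes 2 were downregulated, against 6.09% of all genes. They were the repressor gene CRY1, with 182 to 278 (median 236) against 468, 764 and 546 (log2FC -1.36 ± 0.27, adjusted p = 0.00525), and NFIL3 (-1.27 ± 0.37), the former in all 5 fits. The time of day of sampling is not given in the sources used here.

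In the insulin-like growth factor axis 6 of 22 genes were downregulated, 3 without Control 2, and 1 was upregulated. STC1, stanniocalcin, an inhibitor of the protease PAPP-A, had 323 to 476 (median 377) normalized counts in the cold lambs and 890.3, 3764 and 1356 in the controls (log2FC -2.37 ± 0.31, adjusted p = 0.000943). PAPPA, which encodes that protease and so frees growth factor from its binding proteins, had 18 to 45.4 (median 22.6) against 97.4, 222 and 93.1 (log2FC -2.32 ± 0.38, adjusted p = 0.00215). Both lay lower in every cold lamb and were called in all 5 fits. IGFBP3 was downregulated (-1.36 ± 0.34) and IGFBP6 upregulated (1.42 ± 0.39), and each call was lost without Control 2. Of 19 genes of angiogenesis and endothelial signalling 3 were downregulated, with 1 under TMM and 6 without Control 2. ESM1, endocan, a tip-cell gene, had 12.8 to 16.8 (median 14.3) against 90, 69 and 152 (log2FC -2.81 ± 0.58, adjusted p = 0.00624), and its call was made in all 5 fits. NOS3 (-1.16 ± 0.31) and DLL4 (-1.10 ± 0.34) were lower without being called under TMM. VEGFA had 9301 to 14191 (median 11482) against 15827, 4902 and 42651 (log2FC -0.85 ± 0.41, adjusted p = 0.161), so that Control 2 lay below and Controls 1 and 3 above the cold lambs. The endothelial marker list summed to 24014 to 31745 in the cold lambs and to 40434, 40099 and 60409 in the controls, and its part in these decreases was not tested. In Control 2 most of that sum was EGFL7. There PECAM1, CDH5, ESAM, TIE1, TEK, KDR, ERG and EMCN were lower than in every cold lamb, and ROBO4, EGFL7, CLDN5 and VWF were higher.

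Of the 38 thermogenesis and fat whitening genes that the study picked, 2 were upregulated (CYP1A1 and MKI67) and 9 downregulated, and PPARGC1A was the 1 of the 9 called in all 5 fits. UCP1, the uncoupling protein of brown fat, had 2.90 to 152 (median 10.7) normalized counts in the cold thyroids and 167, 579.8 and 328 in the control thyroids (log2FC -3.43 ± 0.96, adjusted p = 0.0244). Every cold lamb lay below every control, though the highest cold lamb, Cold 1, came close to Control 1, and the call was lost without Control 2. Adipocyte markers, a list that holds UCP1, summed to 2778 to 10062 in the cold lambs and to 4614, 13262 and 4036 in the controls, with overlap, and their part in the UCP1 values was not tested. PNPLA2, the triglyceride lipase, had 5175, 43426 and 5091 in the controls (log2FC -1.88 ± 0.49, adjusted p = 0.019), and without Control 2 its log2FC was -0.07. ADRA1A (-1.45 ± 0.36) and ACSL5 (-1.003 ± 0.23) were also downregulated. The beta-adrenergic receptor genes ADRB1 (0.40 ± 0.51) and ADRB3 (-0.36 ± 0.65) were not called at low levels, nor were the thyroid hormone receptor genes THRA (0.03 ± 0.19) and THRB (-0.11 ± 0.82).

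Some further calls of genes given above rested on single controls. The calls of CTSZ, MARS, ERRFI1, ADRA1A, KLF4 and COL4A2 were lost without Control 2, and those of CTSH, COL16A1, GPX4, TXN, NDUFB1, NOS3, DLL4 and KCNQ1 without Control 3. COL1A2, CD2, CD22, POLE and GPX2 were not called without Control 1 or without Control 3, THY1 and ORC1 not without Control 1 or without Control 2, and MMP9, NDUFS7 and ACSL5 not without Control 2 or without Control 3. ATF3, HSPH1 and NFIL3 were not called without Control 1. LUM and SGK1 were called in none of the 3 fits that leave out a control. With TMM the calls of ATF3, TXN, NFIL3, NDUFS7, ACSL5, SGK1 and COL4A2 were lost.

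Against the AT lambs, which were of the same age and also housed, no gene was called in the cold lambs by edgeR, with 660 genes (4.07%) at an unadjusted p under 0.05 and a lowest adjusted p of 0.9999. TMM, the fit of these 2 groups alone and the fit without AT 3, a library with muscle markers summing to 4491900, also gave 0. DESeq2's Wald test called 5 genes lower in the cold lambs, among them NKD2, BCL11B, LOC114117814 and LOC105614373, which are named here after their values were seen. Of the 12 leading genes in each direction CYP1A1 differed most from the AT lambs, with 19.4 to 657 (median 319) normalized counts there and a cold minus AT of 2.53 ± 0.67 (unadjusted p = 0.00198). MX2 (1.68 ± 0.74, unadjusted p = 0.0401), RFLNB (-1.18 ± 0.51, unadjusted p = 0.034) and HCRTR1 (-0.75 ± 0.34, unadjusted p = 0.0457) were the other leading genes with an unadjusted p under 0.05, and none passed the adjustment. NOP14 had 702 to 1149 (median 884) in the AT lambs, COL1A1 8945 to 41661 (median 13914), DNAH1 9.46 to 161 (median 128) and PPARGC1A 658 to 923 (median 708). Cold minus AT was -0.22 ± 0.19, 0.08 ± 0.47, -0.59 ± 0.64 and -0.04 ± 0.37 in turn. C1QC was 0.83 ± 0.31, with an unadjusted p of 0.0163.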

How the data were processed

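Thyroid RNA of 15 lambs was sequenced (poly(A) capture, read pairs of 150 bp, BGISEQ-500). Per the labels and the study's methods, the authors trimmed reads with Trimmomatic 0.39, aligned them with STAR 2.7.7a to Oar_rambouillet_v1.0 and counted them per gene with featureCounts (Subread 2.0.0), reads mapping to several places included. They deposited whole-number counts without normalization. Near-identical copies therefore share reads, and whether strand was used is not given in the sources used here. Depth was 25062784 to 30124871 counts per thyroid library. No 2 libraries were alike within sampling noise (chi-square of at least 28.0 per degree of freedom for every pair), and p-values measure the spread between lambs.

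Counts of the 15 thyroid libraries (cold 6, AT 6, control 3) were fitted together by edgeR 4.0.16 (R 4.3.3) with robust quasi-likelihood tests, and offsets came from the size factors of the 3 reference genes by DESeq2 1.42.0. Only genes reaching 10 reads in 10 or more of these libraries entered the tests, which were 2-sided with Benjamini-Hochberg adjustment. The procedure was tested on simulated counts with the same dispersion for every gene and no outlying control. That test therefore does not bear on the differences between the controls. Alternatives were TMM, DESeq2's size factors, DESeq2's Wald test, other filters, the RNA integrity number as covariate, the 2 groups alone and adjusted p alone. Each control, each cold library and AT 3 were also left out in turn, whereas the other AT libraries were always kept. For a single gene an exact permutation test of 6 against 3 lambs has 84 splits and cannot go below p = 0.0119, so edgeR's p-values are given.

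Named genes are, per direction, the 12 largest changes called in all 5 fits without overlap and with a mean of at least 50 normalized counts and a symbol, up to 4 called members per list and direction with members of defining role, the 38 genes of the study, the reference genes and all tested thyroid hormone synthesis and thyroid transcription factor genes. A few of these genes are not reported here. Other genes were named after their values were seen. The members, the lists and the rule were chosen with earlier results of these data known. Gene lists came from general knowledge and are described by counts and medians, without a test of the list. Chromosome names were assigned to the deposited coordinates through a RefSeq gene table (ARS-UI_Ramb_v3.0), from which no position was taken.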

Additional observations from a re-analysis of the deposited data

Results flagged for a closer look

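Among the 6 cold lambs, 27 of the 136 genes named in the text had 1 lamb standing apart, by a gap to the nearest of the others, as a share of the group's range, above Dixon's 95% critical value. Chance flags about 1 in 20 groups where values are normally distributed and the groups independent. The values here were untransformed normalized counts of genes that are not independent, so this rate may not hold. Cold 1 stood apart for 12 genes. Of these, 10 were the interferon genes described above, with gaps of 0.921 for CXCL10, 0.942 for MX2, 0.886 for ISG15, 0.957 for BST-2A, 0.852 for IFIT1, 0.89 for MX1, 0.651 for IFI6, 0.796 for RTP4, 0.867 for EPSTI1 and 0.921 for ZBP1, and Cold 1 was the highest lamb in each. It also stood apart for UCP1 (0.912) and ACSL5 (0.701). Adipocyte markers were highest in Cold 1 among the cold lambs, at 10062 normalized counts, and their part in these 2 genes was not tested.

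Cold 4 stood apart for 9 genes, with gaps of 0.9 for CALCA, 0.835 for HSPB8, 0.767 for PAX8, 0.724 for DDIT3, 0.675 for SLC16A10, 0.647 for CREM, 0.645 for SEC23B, 0.636 for SIK1 and 0.631 for SLC5A5. This lamb held the most C-cell, parathyroid and skeletal muscle marker counts of the cold lambs, and the part of these cells was not tested. The parathyroid list shares CHGA with the C-cell list. In Cold 4 CHGA had 1313 reads and CASR 1133, against 128 for PTH and 14 for GCM2. The remaining flags were Cold 2 for GLIS3 (0.739) and ANOS1 (0.633), Cold 3 for ERRFI1 (0.63), Cold 5 for ALG5 (0.664), and Cold 6 for DUOX2 (0.653) and NDRG1 (0.637). The groups of 3 controls were not tested in this way.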

How the results depend on the processing

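The number of downregulated genes, 987 with the reference genes, was 561 with TMM, 596 with DESeq2's size factors and 2341 at the adjusted p alone. With TMM and without Control 2 it was 334, and the total was 786 instead of 1373. The total at the adjusted p alone was 2831. With TMM and without Control 3 the number of upregulated genes was 588 instead of 386. Leaving out 1 control, 1 cold library or AT 3 gave 293 to 434 upregulated genes, 698 to 1284 downregulated genes and 1026 to 1683 in all. Leaving out 1 control with TMM as well gave 452 to 588, 334 to 960 and 786 to 1548. Other settings kept these counts within 1.5 times. Members of the gene lists called lower, 149 in the full fit, were 84 with TMM, 87 with DESeq2's size factors and 96 to 193 with 1 library left out, the lowest being without Control 3. Those called higher, 48 in the full fit, ran from 32 to 51. The scalings differ most for Control 3, whose size factor was 0.784 from the reference genes and 1.01 with TMM. In cold against AT, DESeq2's Wald test called 5 genes where edgeR called 0. Without Control 1 the log2FC turned to 0.037 for HSPB8 and 0.161 for the muscle gene KLHL41, with ranges down to -5.85 and -9.51 with another library left out. Without Control 2 it turned to 0.618 for CHGA and 0.255 for GATA3 (down to -7.28 and -3.84), 2 genes that were highest in the library with the parathyroid markers. With 3 controls, low counts in them limit the precision of large increases. No paired analysis was possible because each group holds different lambs and the replicate numbers are only sample order.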

Other observations

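Of 12 endothelial markers 2 were downregulated in the cold lambs. ROBO4, an endothelial guidance receptor gene, had 1361 to 1956 (median 1544) normalized counts in the cold lambs and 4724, 2276 and 6947 in the controls (log2FC -1.52 ± 0.29, adjusted p = 0.00436), and was called in all 5 fits of edgeR. EGFL7, a protein secreted by endothelium, had 5267 to 9317 (median 6795) against 8525, 23575 and 14605 (log2FC -1.17 ± 0.28, adjusted p = 0.0127), and its call was lost without Control 2. PECAM1 (-0.92 ± 0.35), CLDN5 (-0.70 ± 0.25) and VWF (-0.53 ± 0.23) were not called, although CLDN5 and VWF lay lower in each cold lamb than in each control.

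Blood cell markers were tested in small numbers, 1 for neutrophils and 2 for red cells. S100A9, a calcium-binding protein gene of neutrophils, had 24 to 104 (median 59.3) against 159.8, 923 and 297 (log2FC -2.84 ± 0.65, adjusted p = 0.00985), without overlap but not called without Control 2. HBB, the beta-globin gene of red cells, had 192 to 1202 (median 329) against 1158, 2551 and 1089 (log2FC -1.80 ± 0.61, adjusted p = 0.0548).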
